A study of Mus musculus with 2 samples.

Results

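The chemokine genes Cxcl1, Cxcl5, Cxcl10, Cxcl12, Ccl2 and Ccl7 and the NF-kB and cytokine response genes Icam1, Nfkbia, Socs3 and Il6 were followed through the cell types of the newborn mouse ovary. They are 10 of the 31057 genes in the deposited matrices. They were chosen by their measured UMI levels in these same libraries, around genes that led single groups of granulosa and interstitial cells, and were filled up with other genes of the same families. Levels of the 10 genes across cell types are therefore given as descriptions, with no test. All 10 had at least 1 UMI (unique molecular identifier, a counted RNA molecule) in each library, from 11 UMIs in each for Il6 to 13882 for Nfkbia in replicate 1 and 11138 for Socs3 in replicate 2.

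The cells came from the intact ovaries of CD1 pups on postnatal day 2, when follicles are forming. In all, 2 single-cell libraries (replicates 1 and 2) were made, each from 6 ovaries of 3 pups of a single female, with no treatment or genotype compared, so the comparisons are between cell types within a library. Ovaries were taken apart with collagenase IV in the warm and then Accumax before the cells were loaded. The libraries held 3642 and 4371 cells after filtering. Before filtering, 21 cell barcodes occurred in both. Cell types were set by marker gates: Foxl2, Fst and Wnt6 for granulosa cells (1646 and 582 cells in replicates 1 and 2), Col1a2 and Dcn for interstitial cells (1131 and 1867), Cdh5 for endothelial cells (58 and 26), Ddx4, Dazl and Ooep for germ cells (227 and 561), Upk3b for mesothelial cells (11 and 26) and Ptprc for immune cells (7 and 10). Cells that passed several gates (486 and 1111) or none (76 and 188) were set aside. Further marker lists were summed as a check of the gates. Granulosa-gated cells held 2630 CPM (UMIs scaled to 1000000 summed UMIs of the class) of 8 further granulosa markers against 195 CPM of 8 interstitial ones in replicate 1, and interstitial-gated cells held 62.3 and 7090 CPM of the same lists. Markers of other types were not absent. Interstitial-gated cells held 955 and 421 CPM of 6 perivascular markers, and their part in the levels was not tested. Mesothelial-gated cells held 656 and 815 CPM of the granulosa and 1037 and 909 CPM of the interstitial markers. Beside these they held 4184 and 2973 CPM of 8 mesothelial ones. Granulosa-gated cells held 249 and 590 CPM of 8 mesothelial markers, and immune-gated cells held 922 and 1454 CPM of the granulosa markers beside 18646 and 14740 CPM of 8 immune markers. In these immune-gated cells 6 and 7 of the 8 granulosa markers had no UMI. The sum came from Inha and Gatm in replicate 1 and from Gatm alone in replicate 2. In replicate 2, 6 erythroid markers stood at 947 CPM in granulosa-gated and 2345 CPM in interstitial-gated cells, and their part in the levels was not tested. The mesothelial and immune gates rest on so few cells that their levels are given as values only. A further 135 and 186 cells passed the Upk3b gate and the granulosa gate together.

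Chemokines are small secreted proteins that draw leukocytes and other cells along a gradient. CXCL1 and CXCL5 act on neutrophils through the receptor CXCR2, CXCL10 draws T cells through CXCR3, CCL2 and CCL7 draw monocytes, and CXCL12, the ligand of CXCR4, is made by many stromal cells without stimulation. NF-kB is held in the cytoplasm by IkB-alpha, the product of Nfkbia. Once freed it switches on chemokine genes, the adhesion molecule gene Icam1, Il6 and Nfkbia itself, which then ends the signal. SOCS3 is induced by STAT3 and in turn blocks signalling of the IL-6 family of cytokines. Fos and Egr1 are immediate-early genes, which encode transcription factors that many stimuli induce within minutes.

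The promoters of 7 of the 10 genes were at hand from RefSeq (GRCm38.p6, 250 bases before to 50 bases after a transcription start). The windows of 4 are shown because Cxcl1, Cxcl10 and Nfkbia were often found in the same cells and Cxcl12 was not tied to them. The windows are chr5:90890995-90891294 on the plus strand for Cxcl1, chr5:92348840-92349139 on the minus strand for Cxcl10, chr12:55492598-55492897 on the minus strand for Nfkbia and chr6:117168285-117168584 on the plus strand for Cxcl12, each written 5′ to 3′ along its gene. Capitals mark matches of the 10-base NF-kB consensus on either strand, overlapping matches being joined.
Cxcl1: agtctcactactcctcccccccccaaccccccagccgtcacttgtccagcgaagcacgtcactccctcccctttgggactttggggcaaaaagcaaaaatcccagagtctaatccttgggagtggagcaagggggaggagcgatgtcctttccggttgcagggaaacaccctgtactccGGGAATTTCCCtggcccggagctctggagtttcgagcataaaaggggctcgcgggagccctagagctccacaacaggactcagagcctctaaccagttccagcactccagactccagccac
Cxcl10: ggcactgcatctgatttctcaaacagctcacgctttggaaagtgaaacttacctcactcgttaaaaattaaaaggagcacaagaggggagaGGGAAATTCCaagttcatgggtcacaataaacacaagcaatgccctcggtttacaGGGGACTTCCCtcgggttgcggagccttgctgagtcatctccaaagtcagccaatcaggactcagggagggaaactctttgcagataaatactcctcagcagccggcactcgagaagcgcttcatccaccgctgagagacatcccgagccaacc
Nfkbia: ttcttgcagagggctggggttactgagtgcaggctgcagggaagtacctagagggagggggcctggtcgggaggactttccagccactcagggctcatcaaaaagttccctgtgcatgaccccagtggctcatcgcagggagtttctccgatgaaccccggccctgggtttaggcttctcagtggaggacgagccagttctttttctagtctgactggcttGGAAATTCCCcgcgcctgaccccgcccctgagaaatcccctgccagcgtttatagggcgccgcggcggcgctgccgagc
Cxcl12: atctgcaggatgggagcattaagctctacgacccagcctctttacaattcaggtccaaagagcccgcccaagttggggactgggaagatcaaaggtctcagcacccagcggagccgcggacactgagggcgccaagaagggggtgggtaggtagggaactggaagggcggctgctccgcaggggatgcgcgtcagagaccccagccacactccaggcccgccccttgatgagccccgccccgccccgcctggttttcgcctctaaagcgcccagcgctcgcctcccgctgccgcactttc
Of all 32851 promoter windows of this length, 8.46% held the NF-kB consensus. The Cxcl1 window held 2 overlapping matches, starting 71 and 70 bases before the transcription start. The Cxcl10 window held 3, starting 159, 104 and 103 bases before it, and the Nfkbia window held 1, starting 29 bases before it. Il6 (chr5:30012864-30013163, plus strand) had 1 match, starting 44 bases before its start. The Cxcl12, Icam1 and Socs3 windows held no full match. The pattern searched was GGGRNNYYCC, where R is A or G, Y is C or T and N is any base. Near matches were not counted, and the Icam1 window holds TGGAAATTCC, which differs from the pattern at 1 base. Other motifs were rarer among the 7 genes. GAAA, 2 bases of any kind and GAAA again, the core of an interferon-stimulated response element, were in the Cxcl10 window and in 3.44% of all windows. TTCNNNGAA, a STAT site, was in the Icam1 (chr9:21015690-21015989, plus strand) and Socs3 (chr11:117969317-117969616, minus strand) windows and in 8.30% of all windows. TGACTCA, an AP-1 site, was in the Cxcl10 and Il6 windows and in 5.20% of all windows. The CArG box, bound by serum response factor, was in none of the 7 and in 1.63% of all windows. Both strands were searched, and no 2 different motifs overlapped in these windows. The Socs3 window starts from a RefSeq start that lies inside the longer GENCODE gene.

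The neutrophil-drawing chemokine Cxcl1 (chr5:90891241-90893115, plus strand) was spread over the somatic cell types. Its level was 525 and 306 CPM in granulosa-gated cells of replicates 1 and 2 (415 ± 155, SD, n = 2 libraries) and 155 and 92.2 CPM in interstitial-gated cells. Endothelial-gated cells held 424 and 555 CPM, mesothelial-gated cells 628 and 219 CPM and immune-gated cells 169 and 325 CPM. The ranges of mesothelial and granulosa cells overlapped each other and those of endothelial and immune cells. Endothelial cells lay above immune cells by these values, and interstitial cells lay below all of these types. In replicate 2, a single cell of the 26 endothelial-gated cells held 86 of their 172 UMIs. The order of endothelial and immune cells is therefore not firm. Granulosa cells stood 3.38 and 3.32 times above interstitial cells in the 2 libraries. Germ cells held 3.81 and 2.77 CPM. After each cell was thinned to 2000 UMIs, Cxcl1 was found in 24.8% and 18.5% of granulosa-gated cells, 14.3% and 8.04% of interstitial-gated cells and 0.913% and 0.417% of germ-gated cells. Without thinning, these shares were 39.4% and 32.8%, 25.4% and 13.0%, and 15.0% and 5.35%. Germ cells, taken as a rough measure of free RNA in the droplets, had a median of 77713 and 45190 UMIs a cell, against 9840 and 9567 in granulosa cells. Their CPM and thinned shares are scaled to these larger totals. They therefore set no upper limit on the part of free RNA in smaller cells.

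Cxcl5 (chr5:90759360-90761624, plus strand), which shares the receptor of CXCL1, was rare and was mostly from granulosa cells of replicate 1. It had 386 UMIs there (19.8 CPM) against 34 in replicate 2 (4.61 CPM), and 84.6% of all its UMIs in replicate 1. Interstitial cells held 33 and 26 UMIs (4.20 and 2.58 CPM), and immune-gated cells held none. The interval of the granulosa share after thinning, 2.06% to 3.72% in replicate 1 (exact binomial, 95%), covers counting error only.

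Cxcl10 (chr5:92346638-92348889, minus strand), a chemokine induced by interferon as well as by NF-kB, had its highest mean in granulosa-gated cells, at 362 and 166 CPM. Immune-gated cells held 261 and 127 CPM, mesothelial-gated cells 238 and 110 CPM, endothelial-gated cells 170 and 42.0 CPM, interstitial-gated cells 89.7 and 44.5 CPM and germ cells 4.36 and 1.04 CPM. Each somatic type overlapped its neighbour in this order, so the order was not firm, but granulosa cells stood 4.03 and 3.73 times above interstitial cells. Replicate 1 was higher in all 6 types, by 2.01 times in interstitial cells to 4.18 times in germ cells. The share of granulosa-gated cells in the library was 45.2% in replicate 1 and 13.3% in replicate 2. Whether this difference in makeup had a part in the higher level was not tested.

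Cxcl12 (chr6:117168535-117181367, plus strand) had a pattern apart from Cxcl1, Cxcl5 and Cxcl10. Ccl2 was also higher in interstitial-gated than in granulosa-gated cells, by 25.0 and 4.32 times in replicates 1 and 2. It stood at 215 and 345 CPM in interstitial-gated cells and at 3.43 and 6.64 CPM in granulosa-gated cells, 62.6 and 52.0 times apart. Endothelial-gated cells held 55.4 and 74.3 CPM, germ cells 0.675 and 1.45 CPM, and immune-gated cells no UMI, with a limit of 3 counts that corresponds to 46.1 CPM in replicate 1. After thinning it was found in 32.7% and 44.2% of interstitial-gated cells and in 0.365% and 1.90% of granulosa-gated cells. Unlike Cxcl10, it was lower in replicate 1 in interstitial, granulosa, endothelial and germ cells.

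The monocyte chemokines Ccl2 (chr11:82035571-82037453, plus strand) and Ccl7 (chr11:82045712-82047525, plus strand) lie next to each other and were rare in the 2 large somatic types. Ccl2 had 25.6 and 16.4 CPM in interstitial-gated cells and 1.02 and 3.80 CPM in granulosa-gated cells, where 0.668% and 1.72% of cells had a UMI against 0.881% and 0.713% of germ cells. The granulosa share was thus below that of germ cells in replicate 1 and above it in replicate 2. Ccl7 had 17.9 and 6.56 CPM in interstitial cells and no UMI in endothelial-gated cells. In immune-gated cells Ccl2 reached 369 and 70.6 CPM, from 24 and 5 UMIs, and Ccl7 reached 369 and 254 CPM, from 24 and 18 UMIs, all 18 in 1 cell. With the immune class widened to cells with at least 20 UMIs per 10000 over Ptprc and 8 further immune markers and no other gate (34 and 54 cells, chosen after the values were seen), Ccl2 was at 501 and 402 CPM and Ccl7 at 602 and 365 CPM. In this class Ccl2 was found in 86.7% and 66.7% of the 15 and 15 cells with Ccl7. Neutrophil markers summed to 14592 CPM in the wider class of replicate 1 and to 329 CPM in replicate 2, and their part in the levels was not tested. Cxcl1 stood at 1027 and 253 CPM in the same cells, and Nfkbia at 2295 and 1247 CPM. Cells with both the Upk3b and the granulosa gate held 44.2 and 48.3 CPM of Ccl2, in 20.7% and 21.0% of cells. Over all cells, 127 and 138 had Ccl2, 68 and 62 had Ccl7 and 29 and 26 had both.

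Icam1 (chr9:21015985-21028817, plus strand), the adhesion molecule through which leukocytes bind endothelium, was highest in endothelial-gated cells, at 313 and 203 CPM. Interstitial-gated cells held 162 and 99.1 CPM and immune-gated cells 123 and 141 CPM, with overlapping ranges. Granulosa-gated cells held 13.5 and 14.8 CPM, which was 0.0832 and 0.149 times the interstitial level, and germ cells 0.737 and 0.454 CPM.

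Nfkbia (chr12:55489410-55492647, minus strand), the NF-kB inhibitor and target, was found in every type. Immune-gated cells held 1768 and 1017 CPM, endothelial-gated cells 600 and 523 CPM, mesothelial-gated cells 808 and 371 CPM, interstitial-gated cells 374 and 256 CPM and granulosa-gated cells 292 and 207 CPM. Granulosa and interstitial cells overlapped. Germ cells held 115 and 107 CPM, and Nfkbia was the gene of the 10 with the highest germ-cell level, found in 20.5% and 18.5% of thinned germ cells against 0.913% and 0.417% for Cxcl1.

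Socs3 (chr11:117966079-117970047, minus strand), the feedback inhibitor of IL-6 family signalling, was highest in interstitial-gated cells, at 515 and 648 CPM. This was 5.08 and 8.39 times the level of granulosa-gated cells (101 and 77.3 CPM). Mesothelial-gated cells held 295 and 157 CPM, endothelial-gated cells 185 and 245 CPM, immune-gated cells 138 and 184 CPM and germ cells 1.53 and 4.44 CPM. Socs3 was found in 48.6% and 53.8% of thinned interstitial cells.

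Il6 (chr5:30013114-30019981, plus strand) was close to undetected. Endothelial-gated cells held 1 and 7 UMIs (1.06 and 22.6 CPM), interstitial-gated cells 6 and 0 and granulosa-gated cells 1 and 0. No mesothelial-, immune- or germ-gated cell had a UMI in either library. With 0 of 1867 interstitial cells in replicate 2, a share of cells with a UMI of up to 0.161% is allowed by counting error.

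**Figure D1:**
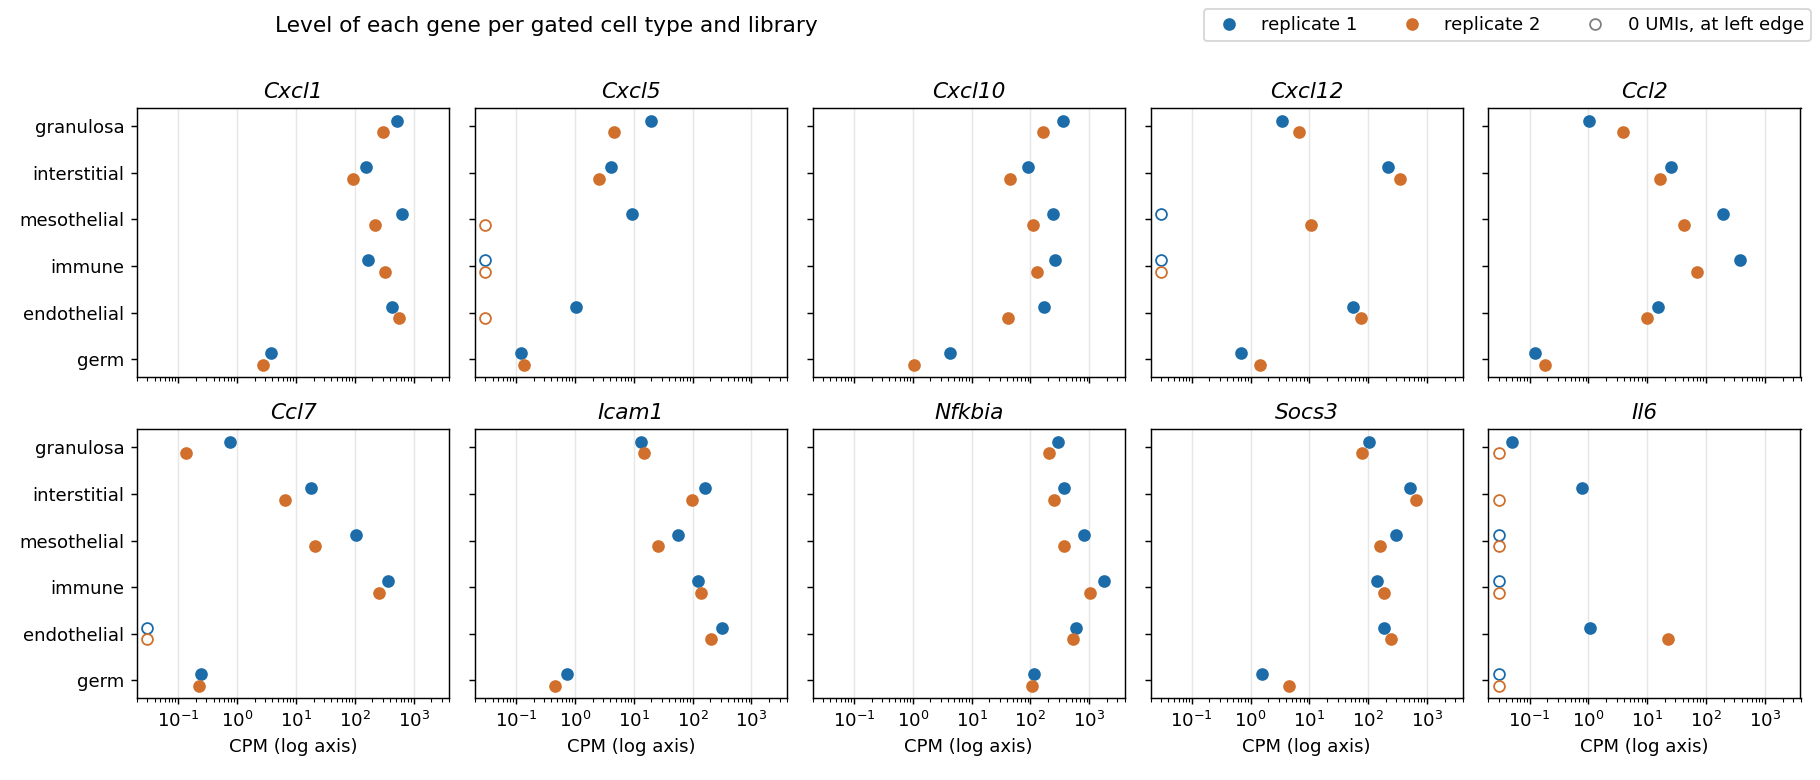
Level of each gene in CPM (log axis) in the 6 gated cell types, with 1 point for each library and open points at the left edge for libraries with 0 UMIs. Cxcl12 stands at 215 and 345 CPM in interstitial cells and at 3.43 and 6.64 CPM in granulosa cells, while Cxcl1 and Cxcl10 are higher in granulosa than in interstitial cells.

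The UMIs of the NF-kB-linked chemokines were held by few cells. In granulosa-gated cells the highest 5% of cells held 47.2% and 57.2% of Cxcl1 UMIs and 45.7% and 66.0% of Cxcl10 UMIs, with up to 101 and 93 Cxcl1 UMIs in a cell. The median cell with Cxcl1 held 7 and 5 UMIs. The same top 5% held 28.1% and 37.6% of Nfkbia UMIs and 33.4% and 35.8% of Socs3 UMIs. In interstitial-gated cells the top 5% held 62.8% and 79.0% of Cxcl1 UMIs and 75.6% and 94.0% of Cxcl10 UMIs. Without thinning, only 25.4% and 13.0% of these cells had Cxcl1 and 14.9% and 6.43% had Cxcl10, against 58.1% and 62.8% for Cxcl12. A gene found in few cells must have a high share in the top 5%, so these shares are not independent of detection. Ccl2 and Ccl7 were found in fewer than 5% of interstitial cells, so no such share is given for them. In replicate 2, a single interstitial cell held 39 of the 66 Ccl7 UMIs. Cxcl12 and Socs3 were spread more evenly there, with 26.8% and 25.9% and with 24.5% and 25.8% in the top 5%. For comparison, the top 5% of granulosa cells held 18.9% and 21.3% of Fos UMIs.

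**Figure D2:**
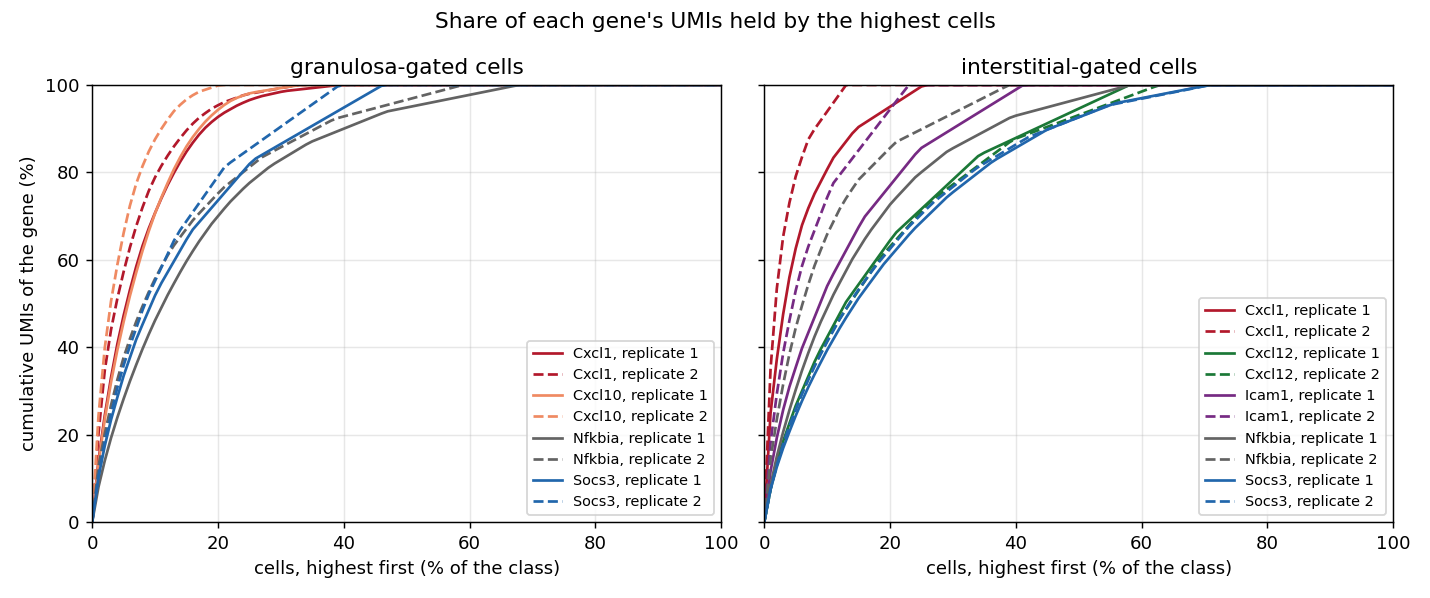
Cumulative share of a gene's UMIs (%) against the share of cells taken from the highest down (%), in granulosa-gated and interstitial-gated cells, solid for replicate 1 and dashed for replicate 2. Of the 4 genes drawn for granulosa cells, Cxcl1 and Cxcl10 rise fastest, and of the 5 drawn for interstitial cells Cxcl1 rises fastest and Cxcl12 and Socs3 slowest, with 26.8% and 24.5% of UMIs in the top 5% of cells of replicate 1.

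Co-detection was then described for the members found in at least 30 thinned cells of each library. These were Cxcl1, Cxcl10, Nfkbia and Socs3 in granulosa-gated cells, and the same genes with Cxcl12 and Icam1 in interstitial-gated cells. The measure is the log2 odds ratio, the odds of finding a gene in cells with the partner over the odds in cells without it, in cells thinned to 2000 UMIs. Cells of a library share its depth and free RNA, and no p-value is given. In granulosa cells the strongest pair was Cxcl1 with Cxcl10. Cxcl10 was found in 61.0% and 41.1% of cells with Cxcl1 (of 1643 and 578 cells in all) and in 8.26% and 5.31% of cells without it, a log2 odds ratio of 4.11 and 3.62. Cxcl1 with Nfkbia gave 3.22 and 2.92, and Cxcl10 with Nfkbia 3.10 and 2.99. Socs3 was weakly tied to these genes in replicate 1 (0.34 with Cxcl1) and more so in replicate 2 (1.62).

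In interstitial cells all pairs among Cxcl1, Cxcl10, Icam1, Nfkbia and Socs3 were above 0 in both libraries, from 1.04 for Cxcl10 with Socs3 in replicate 1 to 3.87 for Cxcl10 with Nfkbia in replicate 2. Icam1 was found in 37.2% and 29.8% of interstitial cells with Nfkbia and in 14.1% and 7.38% of those without. Cxcl12 was apart: its log2 odds ratios with the other 5 genes lay between -0.32 and 0.28, although it was found in 367 of 1123 and 792 of 1791 cells.

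**Figure D3:**
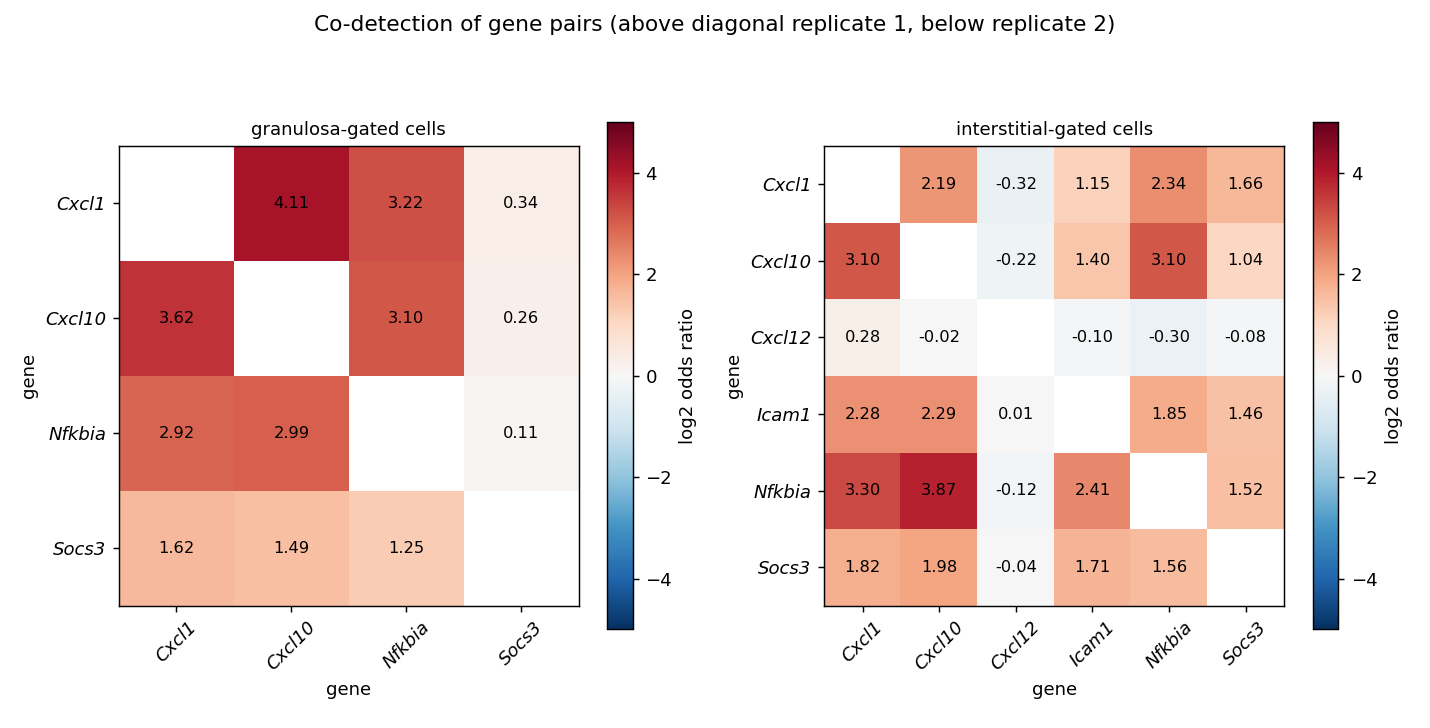
Log2 odds ratio of detection for each pair of genes in granulosa-gated (left) and interstitial-gated (right) cells thinned to 2000 UMIs, with replicate 1 above and replicate 2 below the diagonal. Cxcl1, Cxcl10 and Nfkbia form the darkest block (2.92 to 4.11 in granulosa cells), and the row of Cxcl12 is near 0.

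The genes most like each member by the phi coefficient of detection (the smaller of the 2 libraries, over 4994 genes in granulosa and 7196 in interstitial cells) followed the same division. In granulosa cells Cxcl1, Cxcl10 and Nfkbia had each other and Irf1, an interferon regulatory factor, as their 3 nearest genes, with a phi of 0.375 and 0.381 for Cxcl1 with Irf1. Socs3 was nearest to Junb, Zfp36 and Fos in granulosa cells (phi of 0.192 and 0.240 for Junb) and to Junb, Egr1 and Btg2 in interstitial cells (0.353 and 0.323 for Junb). Junb is an AP-1 subunit, Zfp36 encodes a protein that brings about decay of AU-rich mRNAs, and Btg2 is an early-response inhibitor of proliferation. In interstitial cells Icam1 was nearest to Zfp36, Nfkbia and Irf1, Cxcl1 to Nfkbia, Irf1 and Zfp36, Cxcl10 to Nfkbia, Irf1 and Cxcl1, and Nfkbia to Irf1, Cxcl10 and the kinase gene Pim1. Cxcl12 had only low values, the highest being 0.113 and 0.105 with the growth factor gene Igf1, followed by the matrix gene Lum and by Lsp1.

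Fos and Egr1 were found in most somatic cells. Fos stood at 2490 and 1463 CPM in granulosa-gated and 3098 and 3803 CPM in interstitial-gated cells, and Egr1 at 1260 and 770 CPM and at 1201 and 1119 CPM, while germ cells held 25.0 and 33.3 CPM of Fos and 17.9 and 18.9 CPM of Egr1. After thinning, 82.8% and 76.1% of granulosa cells and 81.1% and 90.6% of interstitial cells had Fos, and 75.3% and 62.8% of granulosa cells and 74.9% and 75.1% of interstitial cells had Egr1. The part of the warm dissociation in these levels was not tested.

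The members were chosen by their levels in these same cells. The shares of all genes below are therefore given for scale and are no test. With Egr1, all 4 members examined in granulosa cells had a log2 odds ratio over 1 in both libraries, where 0.817% of 4896 genes did. Cxcl1 was found in 29.2% and 25.9% of granulosa cells with Egr1 and in 11.6% and 6.05% of those without, a log2 odds ratio of 1.64 and 2.39. In interstitial cells 5 of 6 did, where 0.675% of 7107 genes did, and Cxcl12 was the exception at 0.16 and 0.04. Socs3 was found in 56.5% and 62.5% of interstitial cells with Egr1 and in 25.2% and 27.6% of those without. With Fos, 3 of 4 members passed in granulosa cells, where 0.878% of genes did. Socs3 was at 2.48 and 2.05, Cxcl1 at 1.25 and 1.97, Cxcl10 at 1.19 and 2.06, and Nfkbia at 1.00 and 0.85. In interstitial cells Socs3 alone passed with Fos, at 1.57 and 2.88, where 0.521% of genes did. Icam1 (0.18 and 2.95) and Cxcl1 (0.22 and 2.17) were over 1 in replicate 2 only, where no more than 3 cells without Fos had either gene. With cells thinned to 1000 UMIs, the count with Fos in granulosa cells fell from 3 to 0 and that with Egr1 from 4 to 2. With cells split at the median Fos or Egr1 count, a choice made after seeing the data, these counts were 1 (Socs3) and 3. Without thinning, 4 of 6 passed with Fos in interstitial cells (Cxcl1, Icam1, Nfkbia and Socs3). Over all genes the median log2 odds ratio lay between -0.08 and -0.02.

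**Figure D4:**
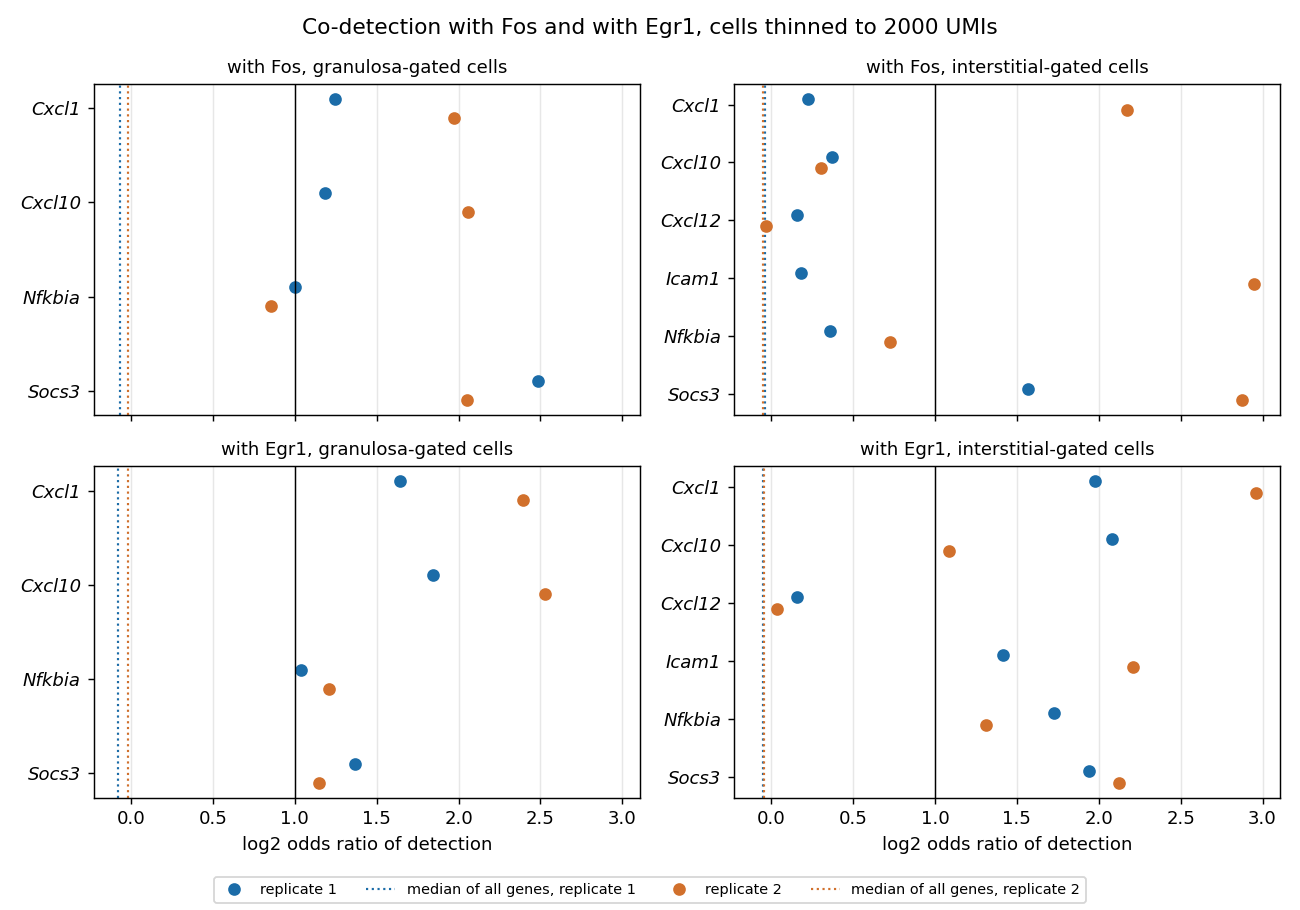
Log2 odds ratio of detection of each gene with Fos (top) and with Egr1 (bottom) in granulosa-gated and interstitial-gated cells thinned to 2000 UMIs, with a point for each library, dotted lines at the medians of all genes and a solid line at 1. With Egr1 all genes but Cxcl12 lie to the right of the line, and with Fos in interstitial cells only Socs3 does so in both libraries.

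The other genes of the pathway were tested for differences between cell types with edgeR's quasi-likelihood test on UMIs summed for each type and library. Each type was set against the mean of the other 5. This mean was of fitted log2 levels, so a type with few or no UMIs lowers it. A gene can thus be found higher in a type while another type holds more of it. Of 93 listed genes, 73 could be tested. A gene was called higher in a type at a log2 fold change over 1 and an adjusted p under 0.05. The share of pathway genes higher in a type is set beside the share of all 14007 genes tested. Immune-gated cells had 21 of 73 higher (28.8%, against 5.19% of all genes) and endothelial-gated cells 18 (24.7%, against 11.4%). Granulosa-gated cells had 12 (16.4%, against 19.7%), interstitial-gated cells 13 (17.8%, against 18.4%) and mesothelial-gated cells 2 (2.74%, against 4.85%), which were near or below the share of all genes. Germ-gated cells had 9 higher (12.3%, against 32.5%) and 23 lower (31.5%, against 11.7%). Lower calls were 8 in interstitial (11%, against 2.57%), 2 in granulosa (2.74%, against 2.46%) and 1 in mesothelial cells (1.37%, against 0.657%). By edgeR no pathway gene was lower in immune or endothelial cells after adjustment, where 3.16% and 2.53% of all genes were, with 3 and 2 genes at an unadjusted p under 0.05 and 0 and 0 by DESeq2. The median log2 fold change of the 73 genes was 0.88 in immune cells against -1.08 over all genes, and -1.62 in germ cells against 0.58. The immune count rests on 7 and 10 cells and ranged from 7 to 40 with other gates, where the share stayed above that of all genes (10.8% against 1.39% and 51.3% against 11.1%). The list holds genes of leukocytes, among them Ccl3, Ccl4, Il1b, Itgal and Itgb2. A gene could also pass the low-count filter through the sums of 1 type alone. The immune share thus describes the list chosen and is no test of the pathway. The endothelial count was 3 of 38 (7.89%, against 8.23% of all genes) after thinning to 2000 UMIs, so the excess was not seen there. With the other gated cells summed as the reference, the granulosa count was 24 of 69 (34.8%, against 21.5%). The interstitial count was then 17 of 64 (26.6%, against 18%) and the mesothelial count 4 of 65 (6.15%, against 3.78%), each above the share of all genes.

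Groups of the list by role are small, and their counts are to be read against the shares of all genes given for each type. The NF-kB subunits Nfkb1, Rel and Relb were higher in endothelial cells (3 of 5) and Rel in granulosa cells (1 of 5, close to the 19.7% of all genes). Of 8 genes of the IkB family and other regulators of NF-kB, Nfkbid, Nfkbie, Nfkbiz and Tnfaip3 were higher in immune cells. Bcl3, Nfkbid and Nfkbiz were higher in endothelial cells, Bcl3 in interstitial cells (1 of 8) and Nfkbib and Cyld in germ cells. Some of these calls rest on few UMIs. Immune cells had 2 and 2 UMIs of Nfkbie, 5 and 6 of Nfkbid and 18 and 10 of Nfkbiz in replicates 1 and 2. Endothelial cells had 27 and 3 UMIs of Nfkbid, with log2 folds of 3.40 and 0.69. Receptors upstream of NF-kB were higher in endothelial (Cd40, Ltbr, Tlr3 and Tnfrsf1a, 4 of 9) and interstitial cells (Cd40, Ltbr and Tnfrsf1a, 3 of 9), as were Tlr2 and Tnfrsf1b in immune (2 of 9) and Ltbr in granulosa cells (1 of 9). The ligands Il1a, Il1b and Tnf were higher in immune cells (3 of 5). Among receptors of chemokines, Cxcr4, the receptor of CXCL12, was higher in immune and endothelial cells and Ackr3, which takes CXCL12 up, in granulosa and endothelial cells. Itgal and Itgb2, which form the integrin that binds ICAM-1, were higher in immune cells (2 of 2). Of 13 genes of IL-6 and JAK-STAT signalling, Il6st, the shared receptor chain, and Osmr, the oncostatin M receptor, were among 5 higher in interstitial cells, where Socs3 had its highest level, and Il6ra was the only one higher in immune cells. Osmr and Lifr were also higher in endothelial cells.

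The genes with the largest fold in each type were as follows. Each is given with its log2 fold change ± SE over the mean log2 level of the other types. The TMM-scaled CPM in replicates 1 and 2 and the adjusted p of edgeR follow. The SE was back-calculated from the fold and the F statistic of the test, so it is approximate. A gene can be listed for a type though another type holds more of it, as Nos2 and Cd40 show. Where a gene had no UMI in some other types, its fitted fold depends on the prior count and is no bound. Granulosa cells were marked by the B-cell chemokine Cxcl13 (6.97 ± 1.04, CPM 8.47 and 5.55, adjusted p = 7.9e-05), the inducible nitric oxide synthase Nos2 (6.37 ± 0.78, CPM 19.2 and 11.2, adjusted p = 6.9e-06) and the membrane-bound chemokine Cx3cl1 (5.10 ± 0.54, CPM 21.4 and 21.6, adjusted p = 9.4e-07). In interstitial cells the largest folds were those of the eosinophil chemokine Ccl11 (5.36 ± 1.33, CPM 5.33 and 2.59, adjusted p = 0.0052), Cd40 (4.97 ± 1.05, CPM 5.33 and 5.61, adjusted p = 0.0015) and Osmr (4.50 ± 1.19, CPM 7.11 and 4.42, adjusted p = 0.0080). Endothelial cells held more Cd40 (CPM 13.8 and 15.7), and Osmr was called higher there too. In endothelial cells these were Tlr3 (6.75 ± 1.16, CPM 11.5 and 15.7, adjusted p = 0.00051), Cd40 (6.64 ± 1.05, CPM 13.8 and 15.7, adjusted p = 0.00017) and Nos2 (5.30 ± 1.43, CPM 9.18 and 6.27, adjusted p = 0.016), from 10 and 5, 12 and 5, and 8 and 2 UMIs. Immune cells had the chemokines Ccl4 (13.59 ± 0.54, CPM 1627 and 817, adjusted p = 1.1e-11) and Ccl12 (12.75 ± 0.58, CPM 373 and 715, adjusted p = 7.6e-11) and the receptor of CX3CL1, Cx3cr1 (12.65 ± 0.56, CPM 667 and 485, adjusted p = 1.6e-10). In mesothelial cells Gbp2, an interferon-induced GTPase gene (5.36 ± 0.54, CPM 146 and 88.1, adjusted p = 1.7e-06), and the early-response gene Ier3 (1.74 ± 0.24, CPM 267 and 353, adjusted p = 7.5e-05) were higher, from 17 and 18 and from 31 and 72 UMIs. Germ cells had Jak2 (3.55 ± 0.52, CPM 44.6 and 41.4, adjusted p = 1.3e-05), the cytokine gene Il18 (2.65 ± 0.62, CPM 9.98 and 5.85, adjusted p = 0.0013) and the inhibitor Nfkbib (1.91 ± 0.17, CPM 104 and 108, adjusted p = 1.6e-08).

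**Figure D5:**
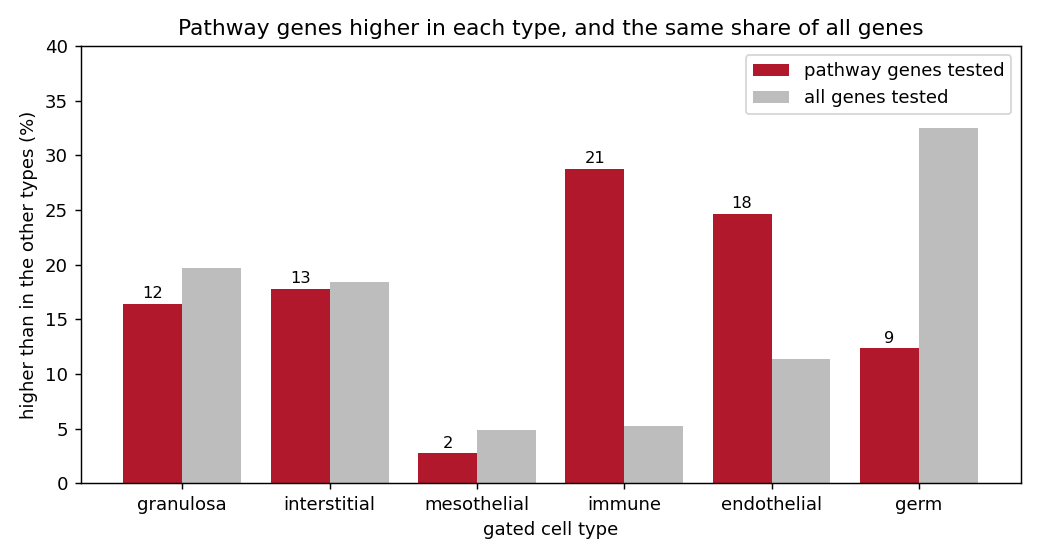
Share in % of the 73 pathway genes (red bars, with their number) and of all 14007 genes tested (grey bars) higher in each gated type. Each type was set against the mean log2 level of the other types. The pathway share exceeds that of all genes in immune (28.8% against 5.19%) and endothelial cells (24.7% against 11.4%). The list holds genes of leukocytes, so the immune share describes the list chosen and is no test of the pathway.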

How the data were processed

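Single cells of whole CD1 mouse ovaries at postnatal day 2 were captured on the 10x Chromium platform (the labels name version 2 chemistry and the study's methods version 3). The counts deposited by the authors were UMIs per gene and cell, made with Cell Ranger 3.0.2 against GRCm38 per the labels, with no normalization. The libraries held 4094 and 4847 cells with 54471790 and 59074480 UMIs. Barcodes under 500 genes or over 10% mitochondrial UMIs were dropped, leaving 3738 and 4464. Scrublet (scanpy 1.11.5) scores over 0.2251, the automatic threshold of replicate 1, marked 96 and 93 doublets in replicates 1 and 2, 2.57% and 2.08%, which were removed. The automatic threshold of replicate 2 was 0.5212.

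A gate needed at least 2 UMIs over its genes and at least 1 per 10000 UMIs, or 5 for the interstitial and germ gates, and a cell was assigned when exactly 1 gate passed. UMIs were summed for each of the 6 types and 2 libraries and tested in edgeR 4.0.16 (R 4.3.3) with filterByExpr, TMM scaling, glmQLFit and glmQLFTest. The p-values were adjusted by Benjamini-Hochberg over all genes. All 12 sums were in 1 fit and shared an estimate of the spread between these 2 libraries, pooled over the 6 types. A p-value for a type is therefore no measure of the spread between the 2 sums of that type alone. The p-values cover no variation beyond these 2 libraries, and the main fit had no term for the library. Cell types of a library come from the same pups, and deviations from the type means correlated at 0.00612 to 0.253 over 15 pairs of types. With the library as a block, mesothelial calls went from 2 to 4. Gate genes were left out of the counts. For odds ratios 0.5 was added to each count. Intervals at 95% and limits of 3 counts cover counting error only.

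The 10 genes and all lists were chosen with earlier results of these data known. Besides these 10 genes, Fos and Egr1, genes were named by rank: the 3 pathway genes with the largest fold in each type among those higher and over 2-fold in each library, and the 3 genes of highest phi per member. In the account by role, all or the first-listed genes of a role that passed were named after their values were seen. Gene positions are from GENCODE M21 (GRCm38). Scripts were tested on simulated data with 200 changed genes. DESeq2 1.42.0, other gates and other filters were tried as alternatives.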

Additional observations from a re-analysis of the deposited data

Results flagged for a closer look

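Cells that passed no gate (76 and 188) were in none of the 6 gated types, though some of them are in the wider immune class, and 8 of the 10 genes had more UMIs there than the 3 that a count of 0 allows in each library. The mean levels of the 2 libraries were 491 CPM for Cxcl1, 85.2 CPM for Cxcl10, 16.7 CPM for Cxcl12, 244 CPM for Ccl2, 231 CPM for Ccl7, 77.8 CPM for Icam1, 983 CPM for Nfkbia and 125 CPM for Socs3. The libraries differed, with 804 and 178 CPM for Cxcl1, 309 and 153 CPM for Ccl7 and 1264 and 702 CPM for Nfkbia in replicates 1 and 2, and with 48 and 20 UMIs of Icam1 among 381991 and 666609 in all. The same cells held 7738 and 7892 CPM of 8 immune markers, 1584 and 828 CPM of 6 perivascular markers and 8765 and 0 CPM of 6 neutrophil markers, and the part of these cells in the levels was not tested. Their median was 4396 and 2600 UMIs a cell.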

How the results depend on the processing

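Counts of pathway genes higher in a type rest on the choice of gates. The count in granulosa cells moved from 12 to 7 with a gate minimum of 1 UMI and to 7 with the wider gates, chosen after seeing the data, and to 24 against the sum of all other gated cells. Against that sum its share passed that of all genes (34.8% of 69, against 21.5%), as it did after thinning (26.3% of 38, against 22.1%), while it was below it with the gate minimum of 1 UMI (9.21%, against 19%) and the wider gates (8.97%, against 17.6%). In interstitial cells the count moved from 13 to 8 with a gate minimum of 3 UMIs (12.3%, against 17% of all genes). It moved to 7 with cells of several gates assigned (9.59%, against 14.7%) and to 7 after thinning to 2000 UMIs (18.4%, against 22.6%). Against the sum of all other gated cells the interstitial count was 17 of 64, above the share of all genes (26.6%, against 18%). In mesothelial cells it moved from 2 to 11 and 5 with gate minimums of 1 and 3 UMIs, to 7 with cells of several gates assigned, to 8 with the wider gates, to 7 with DESeq2, to 4 with DESeq2 size factors, to 5 without the low-count filter, to 4 against the sum of other cells and to 4 with the library as a replicate block. Under several alternatives the mesothelial share was above that of all genes, the reverse of the order in the reported values. These were the gate minimums of 1 UMI (14.5% of 76, against 3.75%) and 3 UMIs (7.69%, against 6.61%), thinning (5.26%, against 3.01%) and DESeq2 (9.59%, against 7.88%). So were no low-count filter (5.49%, against 3.92%) and the sum of other cells (6.15%, against 3.78%). The share stayed below in the other tested alternatives, such as the wider gates (10.3%, against 15.5%). In immune cells the count moved from 21 to 33 and 7 with gate minimums of 1 and 3 UMIs and to 7 after thinning. It moved to 40 with the wider gates, and the share was above that of all genes in each (18.4% against 2.76% after thinning). Endothelial and germ counts moved from 18 to 3 and from 9 to 5 after thinning, where 38 pathway genes could be tested in place of 73 and the endothelial share was 7.89% against 8.23% of all genes. Leaving out a replicate gives counts past 2-fold with no test, from 21 to 22 in interstitial, 12 to 18 in mesothelial and 27 to 30 in endothelial cells. Without replicate 1 and without replicate 2, the interstitial shares were 33.3% and 30%, against 32.8% and 34.4% of all genes. The mesothelial shares were 18.2% and 25.7%, against 25.3% and 21.8%, so neither type was above all genes in both. Endothelial shares were above in both, at 40.9% and 42.9%, against 24.1% and 29.7%. The block changed no other count by over 1.5 times. DESeq2 called 16, 15 and 45 pathway genes lower in granulosa, interstitial and germ cells, against 2, 8 and 23 in edgeR. Apart from the smaller number of genes after thinning, the cause of these moves was not tested.

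Of 414 alternative CPM values of the 10 genes, 388 stayed within 1 SD of the libraries, as did 371 of 480 shares of cells, 61 of 90 log2 odds ratios with Fos and 67 of 90 with Egr1. Values without a replicate are not in these numbers, since with 2 libraries they always lie within 1 SD of the mean. Cxcl12 was highest in interstitial cells and Ccl7 in immune cells under each alternative, while Cxcl1 was highest in endothelial, mesothelial or immune cells depending on the gates. Without replicate 1 and without replicate 2 the members over 1 with Fos were 3 and 1 in interstitial cells. Endothelial, mesothelial and immune levels rest on few cells.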
